A study of Mus musculus with 40 samples.

Results

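Matrix Gla protein and 9 genes that govern mineral deposition were followed across 10 hairpin lines of the mouse mammary carcinoma line 4T1. The 10 genes were picked by symbol, with earlier results of these data known. They are Mgp itself, the vitamin K enzymes Ggcx, Vkorc1 and Vkorc1l1, the phosphoprotein gene Spp1, the pyrophosphate genes Enpp1, Ank and Alpl, and the phosphate transporters Slc20a1 and Slc20a2. All 10 are among the 23480 genes listed in each of the 2 deposited tables, and all 10 had reads in every library. Hairpin 66708 and the hairpins Slpi1U1, Slpi1U2, Slpi2 and Slpi4 make up the Slpi table, and hairpin 88943 and the hairpins Mgp1, Mgp1U1, Mgp1U3 and Mgp2 make up the Mgp table. The study asked how far hairpins disturb genes beyond their target, and compared hairpins of the TRC collection with microRNA-embedded shERWOOD designs. The catalogue-numbered hairpins 66708 and 88943 were selected with puromycin (1 µg/ml) and are taken here to be the TRC hairpins, while the 8 gene-named hairpins were selected with hygromycin (500 µg/ml), so that source, vector and drug cannot be told apart. Slpi-directed and Mgp-directed below stand for the 4 gene-named hairpins of each table. Lines were made at a viral multiplicity of 0.3 with drug selection for 10 days on average. Each hairpin had 2 libraries, with totals of 12.2 M to 28.5 M counted reads for Slpi and 12.1 M to 23.3 M for Mgp. No untransduced cells and no control hairpin were analysed here, so every difference below is between lines that carry a hairpin. Slpi, which encodes a secreted protease inhibitor and is the target in the Slpi table, had 151 ± 8.14 CPM (counts relative to library total; SD, n = 2) in 66708, against 46.9 to 61.9 CPM in the libraries of the 4 Slpi-directed hairpins. In the Mgp table Slpi had 140 ± 7.03 CPM in 88943, against 448 to 613 CPM in the Mgp-directed libraries, 3.91-fold lower in scaled reads (limma, adjusted p = 1.906e-16).

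Tissue mineral forms where calcium and phosphate outrun their inhibitors. Matrix Gla protein is a secreted inhibitor of calcification that works only after its glutamate residues are carboxylated by the enzyme encoded by Ggcx, which spends reduced vitamin K; Vkorc1 and its paralog Vkorc1l1 encode the reductases that restore it. Inorganic pyrophosphate, a direct inhibitor of crystal growth, is made outside the cell by ENPP1 from ATP, brought to the outside with the help of ANK, and destroyed by the alkaline phosphatase ALPL, while SLC20A1 and SLC20A2 (PiT-1 and PiT-2) import phosphate with sodium. Mammary tumours are known for microcalcifications, and osteopontin, the product of Spp1, is a secreted phosphoprotein that binds mineral and cell-surface integrins.

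The 10 genes differed widely in level. Corrected for exon length and depth (RPKM), the mean over the 10 hairpins was 950 for Spp1, 142 for Ank, 35.4 for Slc20a1, 24.6 for Slc20a2, 18.3 for Mgp, 17.1 for Vkorc1, 4.87 for Ggcx, 4.38 for Vkorc1l1, 2.16 for Alpl and 1.12 for Enpp1. On this per-length level Spp1 and Ank, an inhibitor of mineral growth and a pyrophosphate exporter, stood far above the phosphatase gene Alpl. Mgp varied most, with a fold of 91.1 between the highest hairpin mean (66708) and the lowest (Mgp1U3) in CPM, which scales the reads of a gene to the counted total of its library. The same fold between hairpins was 2.06 for Enpp1, 1.90 for Slc20a1, 1.71 for Alpl, 1.70 for Spp1, 1.58 for Vkorc1, 1.53 for Ank, 1.37 for Ggcx, 1.29 for Slc20a2 and 1.25 for Vkorc1l1. For comparison, the 2 libraries of the same hairpin differed in Mgp by a median fold of 1.09.

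**Figure D1:**
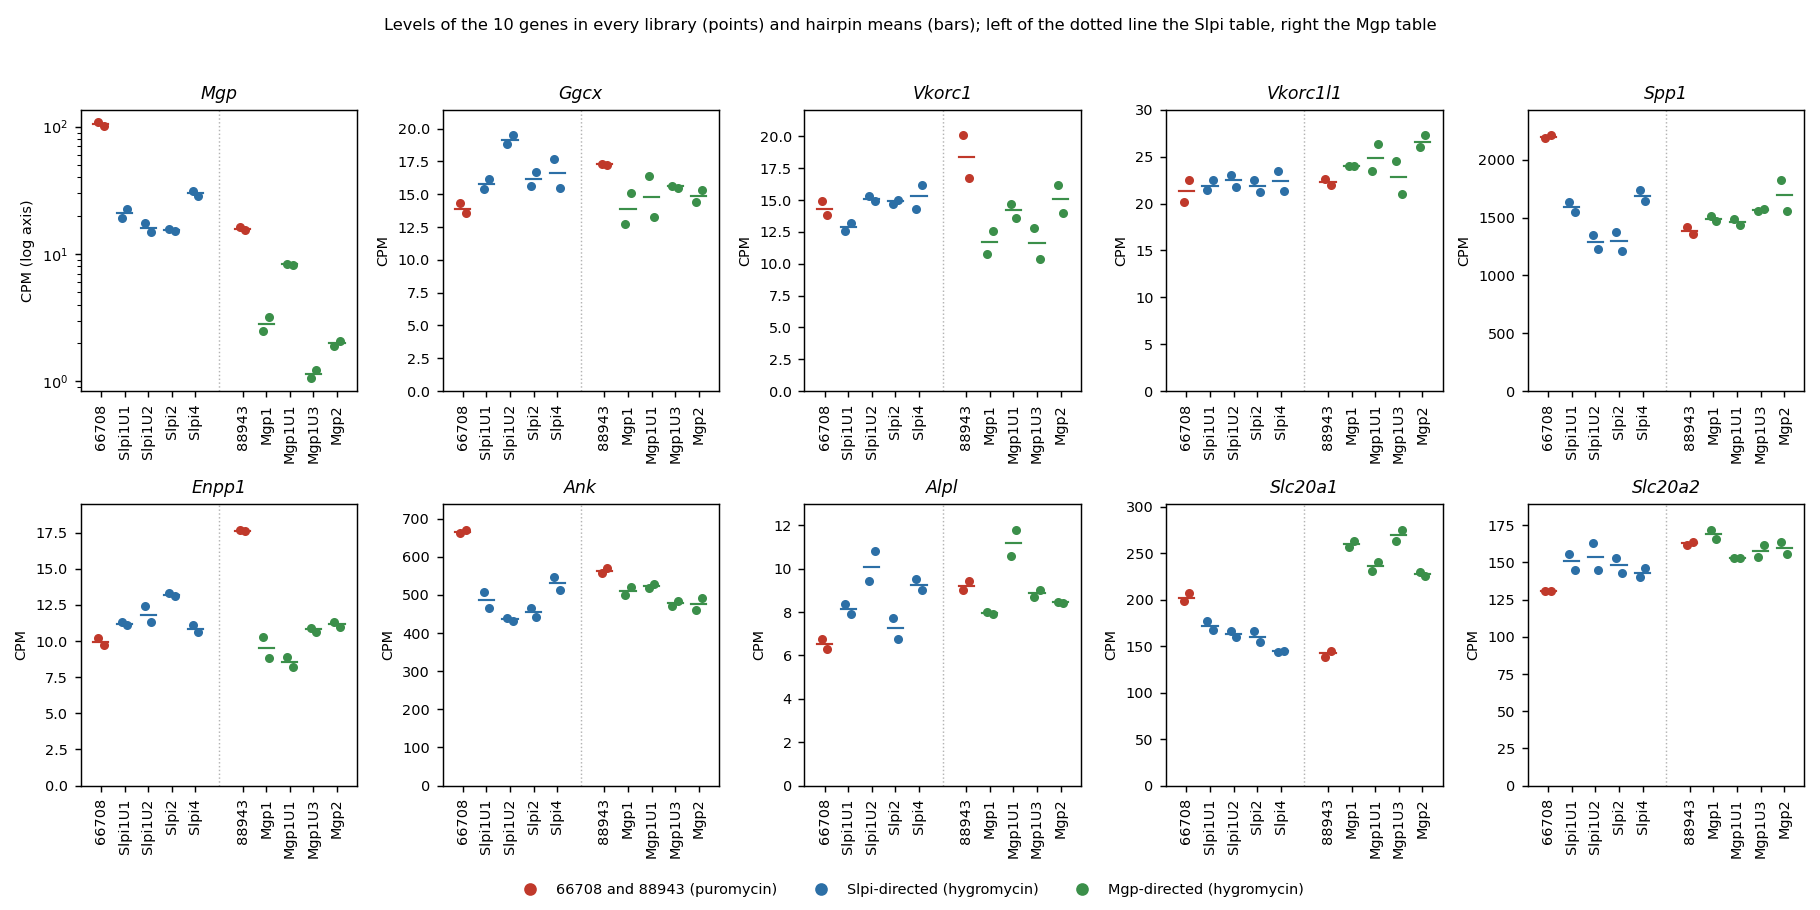
CPM of the 10 genes (y axes, linear from 0 except for Mgp, which has a log axis) in each library of the 10 hairpins (x axes), as points, with a bar at the hairpin mean. The 66708 libraries are the highest for Mgp, Spp1 and Ank, the 88943 libraries are the highest for Enpp1, and Slc20a1 has its highest values in the Mgp-directed lines.

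Sequences near the start sites are shown for the 4 regulators besides Mgp whose difference between a catalogue-numbered hairpin and the gene-named hairpins held under every processing alternative: Spp1, Ank, Slc20a1 and Enpp1. Each is the 300-base promoter window of RefSeq (GRCm38.p6) on the strand of the gene, with the annotated start at base 251. Capitals mark matches, on either strand, to the motifs searched. These were the CCAAT box by that name, the letters TATAAA for a core promoter box, GGGCGG for a GC-rich box, TGANTCA for AP-1, TGACGTCA for CRE, AACCACA for RUNX, CAGACA for SMAD, AGGTCA for a nuclear receptor element and TGATGNAA for an ATF4 composite element. Spp1 and Slc20a1 each have another listed start, which is not shown.
Spp1, chr5:104434861-104435160, plus strand: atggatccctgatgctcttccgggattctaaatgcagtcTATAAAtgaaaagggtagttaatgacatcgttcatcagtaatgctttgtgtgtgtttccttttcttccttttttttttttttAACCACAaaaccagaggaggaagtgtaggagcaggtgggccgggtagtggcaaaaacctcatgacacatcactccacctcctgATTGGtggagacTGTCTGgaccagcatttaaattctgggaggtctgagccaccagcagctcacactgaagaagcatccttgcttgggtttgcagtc
Ank, chr15:27466427-27466726, plus strand: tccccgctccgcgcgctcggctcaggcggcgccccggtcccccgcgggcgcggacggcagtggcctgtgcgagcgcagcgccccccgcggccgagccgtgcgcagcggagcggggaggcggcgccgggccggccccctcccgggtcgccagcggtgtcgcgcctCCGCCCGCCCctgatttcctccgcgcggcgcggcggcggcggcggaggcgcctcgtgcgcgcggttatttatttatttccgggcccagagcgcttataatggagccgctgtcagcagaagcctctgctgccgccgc
Slc20a1, chr2:129198523-129198822, plus strand: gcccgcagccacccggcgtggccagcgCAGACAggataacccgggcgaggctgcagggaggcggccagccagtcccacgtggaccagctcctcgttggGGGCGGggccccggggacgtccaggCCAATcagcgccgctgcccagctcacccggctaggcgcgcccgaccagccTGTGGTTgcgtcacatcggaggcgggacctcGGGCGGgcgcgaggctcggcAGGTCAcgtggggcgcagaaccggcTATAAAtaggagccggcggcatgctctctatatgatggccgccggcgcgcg
Enpp1, chr10:24712110-24712409, minus strand: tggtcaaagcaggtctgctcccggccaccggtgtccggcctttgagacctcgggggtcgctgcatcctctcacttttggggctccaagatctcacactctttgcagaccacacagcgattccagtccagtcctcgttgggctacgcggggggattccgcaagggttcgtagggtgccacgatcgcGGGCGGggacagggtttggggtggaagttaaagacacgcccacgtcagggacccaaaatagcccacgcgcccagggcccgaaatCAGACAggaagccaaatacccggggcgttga
The Spp1 window had a TATA box at position -211 from the start, a RUNX match at -129, a reverse CCAAT at -46 and a reverse SMAD match at -34. The Slc20a1 window had GC boxes at -152 and -46, a CCAAT at -127, a reverse RUNX match at -77, a nuclear receptor element at -26, a TATA box at -1 and a SMAD match at -223. The Ank window, with 78.0% G and C, had only a pair of overlapping reverse GC box matches at -86 and -82. The Enpp1 window had a GC box at -65 and a SMAD match at 19. Among all 32851 promoters, a match was present in 13.6% for the TATA box, 37.4% for CCAAT, 35.7% for the GC box, 5.27% for RUNX and 16.3% for the nuclear receptor element, and 6913 of the 32851 held SMAD letters. AP-1, CRE and ATF4 letters were in none of the 4 windows and in 7.81%, 1.79% and 3.97% of all promoters. No motif searched was shared by the Spp1, Ank and Slc20a1 windows. These matches describe letters, not bound sites.

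Mgp (ENSMUSG00000030218; GRCm38, chromosome 6, 136872435 to 136875823, minus strand; 4 exons in the principal transcript) was highest in the line that carries hairpin 66708, which belongs to the Slpi table. Its libraries had 108 and 102 CPM in 66708, against 19.3 and 22.6 in Slpi1U1, 17.4 and 14.8 in Slpi1U2, 15.6 and 15.1 in Slpi2, and 31.2 and 28.7 in Slpi4. Both 66708 libraries lay above all 8 others, and among the others the Slpi4 libraries were the highest. The deposited values are log2-like after variance stabilization, and on that scale 66708 exceeded the mean of the 4 Slpi-directed hairpins by 1.64 ± 0.04 (SE; limma, adjusted p = 8.878e-14), which as scaled reads was 5.41-fold. On the deposited scale this was the largest positive difference of the 12332 genes tested in the table. That scale compresses low values, so the rank is not a rank of folds. Whether more RNA per cell or more cells with the transcript gave such a difference cannot be told apart in bulk RNA.

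In the Mgp table the catalogue-numbered line had the highest Mgp level. The target of 88943 is inferred from its table and not given by its own label. The Mgp level was 16.2 and 15.4 CPM in 88943, against 2.47 and 3.19 in Mgp1, 8.42 and 8.22 in Mgp1U1, 1.90 and 2.07 in Mgp2, and 1.06 and 1.24 in Mgp1U3. The 88943 libraries lay above the other 8, and Mgp1U1 was next. In CPM, 88943 (15.8 ± 0.570; SD, n = 2) lay between Slpi2 at 15.4 and Slpi1U2 at 16.1, whose hairpins are not aimed at Mgp; no test was made across tables. On the deposited scale 88943 was higher by 0.70 ± 0.03 (SE; limma, adjusted p = 2.626e-12), or 4.02-fold in scaled reads. The deposited scale, unlike the scaled reads, compresses low values: in the Mgp table a doubling from 100 to 200 scaled reads is a difference of only 0.34. The same contrast with voom on the recovered reads, which averages logs over the hairpins and not reads, gave 5.27-fold (95% confidence interval 4.53 to 6.13). The lowest Mgp value, in an Mgp1U3 library, still rested on 15 reads.

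The levels of Mgp also differed among hairpins that are named for the same gene and share a drug. Among the 4 Mgp-directed gene-named hairpins the order was Mgp1U1, Mgp1, Mgp2 and Mgp1U3, with an F test over the 4 at adjusted p = 4.802e-08 (limma). Mgp1U1 exceeded Mgp1 by 0.43 ± 0.04 on the deposited scale (limma, adjusted p = 5.121e-06), while the neighbours Mgp1 and Mgp2 did not differ past the threshold (difference 0.09, 95% confidence interval 0.01 to 0.18, adjusted p = 0.172), and neither did Mgp2 and Mgp1U3 (0.12, 0.03 to 0.21, adjusted p = 0.0551). Among the Slpi-directed hairpins, none of which is aimed at Mgp, Slpi4 exceeded Slpi1U1 by 0.30 ± 0.05 (limma, adjusted p = 0.00656; held in 14 of 17 alternatives, up to 0.0884), Slpi1U1 and Slpi1U2 did not differ past the threshold (0.19, 0.07 to 0.30, adjusted p = 0.187), nor did Slpi1U2 and Slpi2 (0.02, -0.09 to 0.14, adjusted p = 0.913). The 4 Mgp-directed hairpins averaged 3.57 ± 3.24 CPM and the 4 Slpi-directed hairpins 20.6 ± 6.70 CPM (SD over hairpin means, n = 4 each), without overlap. No test was made across tables, which were normalized separately.

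As a whole, the 10 genes were called about as often as other genes of their table. At an adjusted p under 0.05, 66708 had 4 of the 10 higher and 1 lower, beside 27.5% of all tested genes higher and 24.4% lower (51.9% in either direction). In 88943, 3 of the 10 were higher and 4 lower, beside 31.5% higher and 34.4% lower (65.8% in either direction). Both 66708 libraries lay above all 8 others for 4 of the 10 genes and below them for 1, beside 24.4% and 21.1% of all genes (45.5% on either side). Both 88943 libraries lay above for 2 and below for 4, beside 27.2% and 29.5% (56.7%). The median absolute difference of the 10 was 0.0961 in 66708, against 0.103 for all genes, and 0.148 in 88943, against 0.136 for all genes. On log2(CPM + 1), which changes the transformation as well as the scaling, the median gene of the Mgp table moved by 0.12 towards 88943, and 65.1% of calls were in the higher direction, against 47.8% on the deposited scale. In the Slpi table that share was 34.7% on log2(CPM + 1) and 44.9% with column medians set equal, against 53.0% on the deposited scale. Small differences below can depend on this choice.

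**Figure D2:**
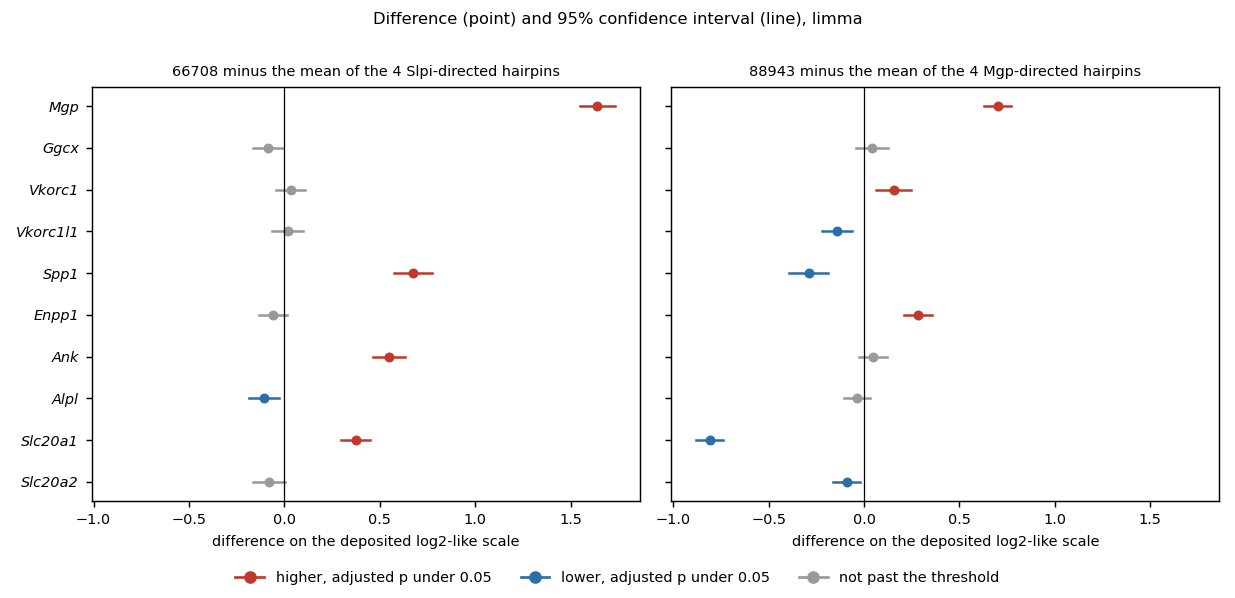
Difference between each catalogue-numbered hairpin and the mean of the 4 gene-named hairpins of its table (x axis, deposited log2-like scale) for the 10 genes (y axis), as a point with its 95% confidence interval; colour gives the call. Mgp lies to the right in both panels, and Spp1 and Slc20a1 lie right of 0 for 66708 and left of it for 88943.

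Of the 3 vitamin K enzyme genes, Vkorc1 was higher and Vkorc1l1 lower in 88943, and none was called in 66708. Ggcx, the carboxylase gene (ENSMUSG00000053460; chromosome 6, 72414308 to 72430712, plus strand), had 14.3 and 13.6 CPM in 66708, against 15.4 to 19.5 (median 16.5) in the 8 Slpi-directed libraries; the difference of -0.09 ± 0.04 missed the threshold (limma, adjusted p = 0.0675) and passed it with column medians set equal (-0.11, adjusted p = 0.0255; range over alternatives 0.00958 to 0.328). In 88943 it had 17.3 and 17.3 CPM, against 12.7 to 16.4 (median 15.2) in the Mgp-directed libraries, a difference of 0.04 ± 0.04 on the deposited scale (adjusted p = 0.365) that was called higher on log2(CPM + 1) (0.22, adjusted p = 0.0289; range over alternatives 0.0289 to 0.796). Vkorc1 (ENSMUSG00000096145; chromosome 7, 127893063 to 127895617, minus strand) was not called in 66708 (0.03 ± 0.04, adjusted p = 0.473). It was higher in 88943, with 20.1 and 16.7 CPM against 10.4 to 16.2 (median 13.2) in the Mgp-directed libraries, by 0.16 ± 0.04 (limma, adjusted p = 0.00409). Without the higher 88943 library the call was lost (0.09, adjusted p = 0.177; range over alternatives 2.119e-04 to 0.177). Of the Vkorc1 exon bases, 47.7% are shared with the same-strand gene Gm21974, which the tables do not list, so its reads are uncertain.

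Vkorc1l1 (ENSMUSG00000066735; chromosome 5, 129941970 to 129986692, plus strand) was lower in 88943 on the deposited scale (-0.14 ± 0.04; limma, adjusted p = 0.00280), while its CPM of 22.6 and 22.0 in 88943 lay within the 21.02 to 27.3 (median 24.3) of the Mgp-directed libraries. The call was lost on log2(CPM + 1) (adjusted p = 0.0971; range over alternatives 5.018e-04 to 0.0971). Read per exon base within a library, which needs no scaling between libraries, Vkorc1 over Vkorc1l1 was 5.17 ± 0.559 in 88943 (SD, n = 2), against hairpin means of 3.05 to 3.58 in the Mgp-directed lines. In the Slpi table the ratio was 4.23 ± 0.561 in 66708, against 3.68 to 4.29 in the Slpi-directed lines. In 66708 Vkorc1l1 itself was not called (0.02 ± 0.04, adjusted p = 0.718).

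Spp1 (ENSMUSG00000029304; chromosome 5, 104435118 to 104441050, plus strand) was the most abundant of the 10 genes and had opposite calls in the 2 tables. It had 2183 and 2211 CPM in 66708, against 1630 and 1546 in Slpi1U1, 1352 and 1232 in Slpi1U2, 1373 and 1214 in Slpi2, and 1737 and 1640 in Slpi4. Both 66708 libraries lay above the other 8, and the difference was 0.67 ± 0.05 (limma, adjusted p = 9.610e-09), or 1.59-fold in scaled reads. In the Mgp table it had 1414 and 1357 CPM in 88943, against 1439 to 1827 (median 1532) in the 8 Mgp-directed libraries. The difference was -0.29 ± 0.05 (limma, adjusted p = 4.329e-05), and 1.23-fold lower in scaled reads. Quantile normalization ended the second call (-0.07, adjusted p = 0.163; range over alternatives 3.081e-09 to 0.163), and 18.8% of Spp1 exon bases are shared with the same-strand gene Gm42793, which the tables do not list.

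Of the pyrophosphate genes, Ank was called higher in 66708 and Enpp1 in 88943; the difference between the tables was not tested. Ank (ENSMUSG00000022265; chromosome 15, 27466677 to 27594909, plus strand) had 662 and 671 CPM in 66708, against 508 and 467 in Slpi1U1, 440 and 431 in Slpi1U2, 467 and 442 in Slpi2, and 548 and 513 in Slpi4. It was higher by 0.55 ± 0.04 (limma, adjusted p = 1.158e-08), 1.49-fold in scaled reads, with no overlap. In 88943 the Ank CPM was 558 and 570, against 460 to 528 (median 497) in the Mgp-directed libraries, but on the deposited scale the difference was 0.05 ± 0.03 (adjusted p = 0.252); it passed on log2(CPM + 1) (0.18, adjusted p = 3.306e-04) and with quantile normalization (0.21, adjusted p = 2.349e-05), the lowest and highest over the alternatives being 2.349e-05 and 0.678.

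Enpp1, which makes pyrophosphate (ENSMUSG00000037370; chromosome 10, 24637914 to 24712159, minus strand), was highest in the 88943 line. Its level was 17.7 and 17.6 CPM in 88943, against 10.3 and 8.82 in Mgp1, 8.90 and 8.22 in Mgp1U1, 11.3 and 11.0 in Mgp2, and 10.9 and 10.6 in Mgp1U3. It was higher by 0.28 ± 0.03 (limma, adjusted p = 6.982e-07), 1.60-fold in scaled reads, and both 88943 libraries lay above the rest. In 66708 it had 10.2 and 9.71 CPM, against 10.6 to 13.3 (median 11.3) in the Slpi-directed libraries, and the difference of -0.06 ± 0.03 was not called (adjusted p = 0.159), but was called lower on log2(CPM + 1) (-0.22, adjusted p = 0.0310; range over alternatives 0.0310 to 0.475).

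Alpl, which destroys pyrophosphate (ENSMUSG00000028766; chromosome 4, 137741733 to 137796384, minus strand), had 6.78 and 6.31 CPM in 66708, against 6.75 to 10.8 (median 8.69) in the Slpi-directed libraries. It was lower in 66708, with a difference of -0.11 ± 0.04 on the deposited scale (limma, adjusted p = 0.0224), and the groups overlapped. Leaving out either 66708 library ended the call (adjusted p = 0.0660 without replicate 1 and 0.177 without replicate 2), as did quantile normalization (0.0640), over a range of 0.00451 to 0.213. In 88943, Alpl had 9.01 and 9.44 CPM, against 7.90 to 11.8 (median 8.59) in the Mgp-directed libraries, and was not called (-0.04 ± 0.03, adjusted p = 0.306), but was called lower with quantile normalization (-0.10, adjusted p = 0.00876; range over alternatives 0.00876 to 0.788). Within libraries, Enpp1 over Alpl per exon base was 0.753 ± 0.0284 in 88943 (SD, n = 2), against 0.303 to 0.521 in the Mgp-directed lines, and 0.597 ± 0.0108 in 66708, against 0.460 to 0.719 in the Slpi-directed lines. Of the catalogue-numbered lines, only 88943 lay outside the range of the gene-named lines of its table on this ratio. Slpi2 was the highest of the Slpi table (0.675 and 0.763), near the 88943 libraries (0.773 and 0.733). Mgp1U1 was the lowest of the Mgp table (0.331 and 0.275).

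The phosphate transporter gene Slc20a1 (ENSMUSG00000027397; chromosome 2, 129198764 to 129211616, plus strand) was called higher in 66708 and lower in 88943, with the largest gap between the tables of the 10 genes. It had 198 and 207 CPM in 66708, against 177 and 167 in Slpi1U1, 166 and 160 in Slpi1U2, 166 and 154 in Slpi2, and 144 and 145 in Slpi4. The 66708 libraries were the highest of the table, by 0.38 ± 0.04 (limma, adjusted p = 3.416e-07) or 1.35-fold in scaled reads. In the other table it had 138 and 145 CPM in 88943, against 257 and 263 in Mgp1, 231 and 240 in Mgp1U1, 230 and 225 in Mgp2, and 263 and 275 in Mgp1U3. The difference was -0.81 ± 0.03 (limma, adjusted p = 3.273e-13), 1.92-fold lower in scaled reads, and ranked 68 from the lowest of 12295 genes. Of its exon bases, 13.1% are shared with opposite-strand genes that the tables do not list; whether the counting used strand is not stated.

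In CPM across all 10 hairpins, the Mgp-directed lines held the highest Slc20a1 levels and 88943 the lowest, next to Slpi4. The 4 Mgp-directed hairpins averaged 248 ± 19.7 CPM and the 4 Slpi-directed hairpins 160 ± 11.3 CPM (SD over hairpin means, n = 4 each), a ratio of 1.55 with no overlap. Such a lack of overlap with the Mgp-directed hairpins higher was found for 14.6% of 11772 genes of at least 1 CPM, and with them lower for 31.5% (46.1% in all). Of the 10 genes, Slc20a1 and Vkorc1l1 (24.6 ± 1.61 against 22.2 ± 0.311 CPM) were higher without overlap, Mgp and Ggcx (14.8 ± 0.667 against 16.9 ± 1.51 CPM) were lower without overlap, and 6 overlapped.

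Slc20a2 (ENSMUSG00000037656; chromosome 8, 22476788 to 22569612, plus strand) is the paralog of Slc20a1 and showed smaller differences. It had 131 and 131 CPM in 66708, against 140 to 163 (median 146) in the Slpi-directed libraries. Both 66708 libraries lay below the other 8, and the difference of -0.08 ± 0.04 missed the threshold (limma, adjusted p = 0.0999), which it passed on log2(CPM + 1) (-0.18, adjusted p = 0.00500), with column medians set equal and with quantile normalization (range over alternatives 0.00500 to 0.282). In 88943 the CPM of 162 and 164 lay within the 153 to 172 (median 159) of the Mgp-directed libraries. The deposited values put 88943 lower (-0.09 ± 0.03; limma, adjusted p = 0.0264), a call lost without either 88943 library (adjusted p = 0.145 and 0.117), without Mgp1 replicate 1 (0.0582) or without Mgp1U1 replicate 1 (0.0517), and the sign turned on log2(CPM + 1) (0.03) and with quantile normalization (0.02), over a range of adjusted p of 0.00405 to 0.660.

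The ratio of the 2 transporter genes within a library needs no scaling between libraries. Slc20a1 over Slc20a2, per exon base, was 1.72 ± 0.0482 in 66708 (SD, n = 2), against hairpin means of 1.13 to 1.27 in the Slpi-directed lines. It was 0.967 ± 0.0234 in 88943, against 1.59 to 1.90 in the Mgp-directed lines. With the exon lengths used (5580 and 6216 bases), Slc20a1 had more reads per base than Slc20a2 in 9 of the 10 lines, and fewer in 88943. The 88943 ratio is close to 1, so its side of 1 depends on these lengths, while the order of the lines does not.

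**Figure D3:**
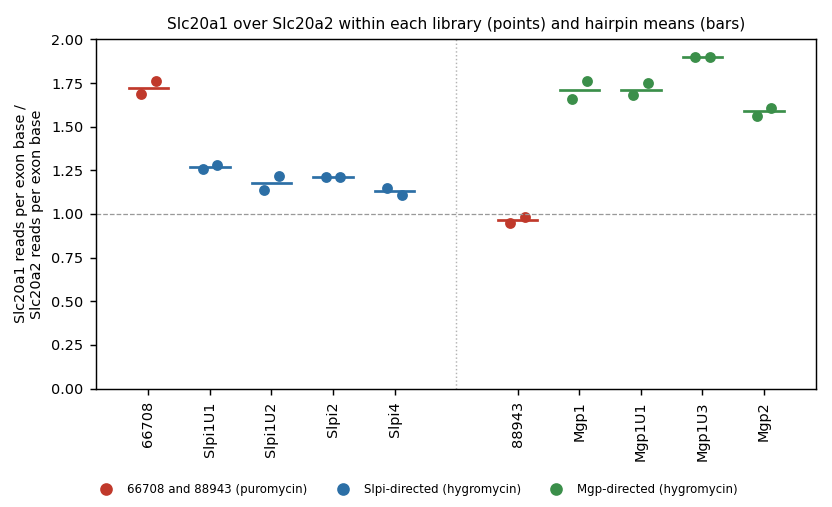
Slc20a1 reads per exon base divided by those of Slc20a2 (y axis) in each library of the 10 hairpins (x axis), as points, with a bar at the hairpin mean; the dashed line is a ratio of 1. 66708 lies above its 4 neighbours at 1.72, and 88943 lies below its own at 0.967.

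The 4 gene-named hairpins of a table, which share a drug, were also compared with each other. The F test over the 4 Slpi-directed hairpins called 3 of the 10 genes, Mgp, Spp1 and Ank, beside 6.60% of all genes; over the 4 Mgp-directed hairpins it called Mgp, Slc20a1 and Alpl, beside 23.4% of all genes. For Mgp, Spp1 and Ank the highest of the Slpi-directed lines was Slpi4. Slpi4 exceeded Slpi1U2 by 0.41 ± 0.06 in Spp1 (limma, adjusted p = 9.607e-04) and by 0.30 ± 0.05 in Ank (adjusted p = 0.00234, range over alternatives 6.334e-04 to 0.0511). Slc20a1 went the other way, with Slpi1U1 above Slpi4 by 0.19 ± 0.05 (adjusted p = 0.0386, range over alternatives 0.0230 to 0.241).

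In the Mgp-directed lines, Slc20a1 was highest in Mgp1U3, the line with the least Mgp. Slc20a1 in Mgp1U3 exceeded that in Mgp2 by 0.24 ± 0.04 (limma, adjusted p = 0.00117) and that in Mgp1U1 by 0.18 ± 0.04 (adjusted p = 0.0138, range over alternatives 0.00118 to 0.138). The order of the lines did not follow Mgp: Slc20a1 was lowest in Mgp2 (227 CPM), which had the next-least Mgp (1.99 CPM). Mgp1U1, with the most Mgp (8.32 CPM), had 236 CPM of Slc20a1. Alpl was highest in Mgp1U1, with 10.6 and 11.8 CPM, above Mgp1 by 0.18 ± 0.04 (adjusted p = 0.0121, range over alternatives 0.00461 to 0.150). Without Mgp1U1 replicate 2 the F test no longer called Alpl (adjusted p = 0.136, range 0.00714 to 0.136). Over the 6 pairs of gene-named hairpins in each table, 11 of 60 pairs of a member and a contrast were called in the Slpi table, where the share of all genes called was 0.681% for Slpi1U1 and Slpi1U2, 3.75% for Slpi1U1 and Slpi2, 2.21% for Slpi1U1 and Slpi4, 1.30% for Slpi1U2 and Slpi2, 5.56% for Slpi1U2 and Slpi4 and 3.24% for Slpi2 and Slpi4. For the Mgp table, 9 of 60 were called, where the share of all genes was 6.52% for Mgp1 and Mgp1U1, 5.80% for Mgp1 and Mgp1U3, 8.67% for Mgp1 and Mgp2, 6.51% for Mgp1U1 and Mgp1U3, 6.06% for Mgp1U1 and Mgp2 and 19.7% for Mgp1U3 and Mgp2. The 6 pairs of a table share libraries, and p-values were adjusted over all genes within each pair. Ggcx, Vkorc1, Vkorc1l1, Enpp1 and Slc20a2 were called in no such pair.

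Further genes of the pathway were read from a list of 46 that covers the vitamin K cycle, other Gla proteins, matrix phosphoproteins, pyrophosphate and phosphate handling, annexins and bone regulators. Of the 46, 22 had enough reads to be tested in the Slpi table; 15 were higher in 66708, 2 were lower and 5 were not called, beside 27.5% of all genes higher and 24.4% lower. The median difference was 0.115 for the 22, against 0.00371 for all genes. For the Mgp table it was 21 genes; 7 were higher in 88943, 11 were lower and 3 were not called, beside 31.5% of all genes higher and 34.4% lower (65.8% in either direction), with a median difference of -0.0867, against -0.00266 for all genes. The genes tested are those of the list that these cells express. The list was chosen with earlier results of these data known, so these counts and medians are description only. With hairpin means as samples the counts were 7 higher and 1 lower in 66708, beside 3600 of all 12332 genes called. In 88943 they were 3 higher and 5 lower, beside 5206 of all 12295 genes called. Leaving out replicate 1 or replicate 2 of the catalogue-numbered hairpin gave median differences of 0.129 and 0.131 in 66708, and -0.0879 and -0.0647 in 88943. The 66708 median kept its sign under each alternative. The 88943 median turned on log2(CPM + 1) (0.0311, with 10 higher and 7 lower), with quantile normalization (0.0446, with 6 higher and 7 lower) and with no filter (0.0324, with 9 higher and 10 lower of 42). Beside these, the calls over all genes in 88943 were 8356 of 12295, 7856 of 12295 and 8430 of 19354.

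**Figure D4:**
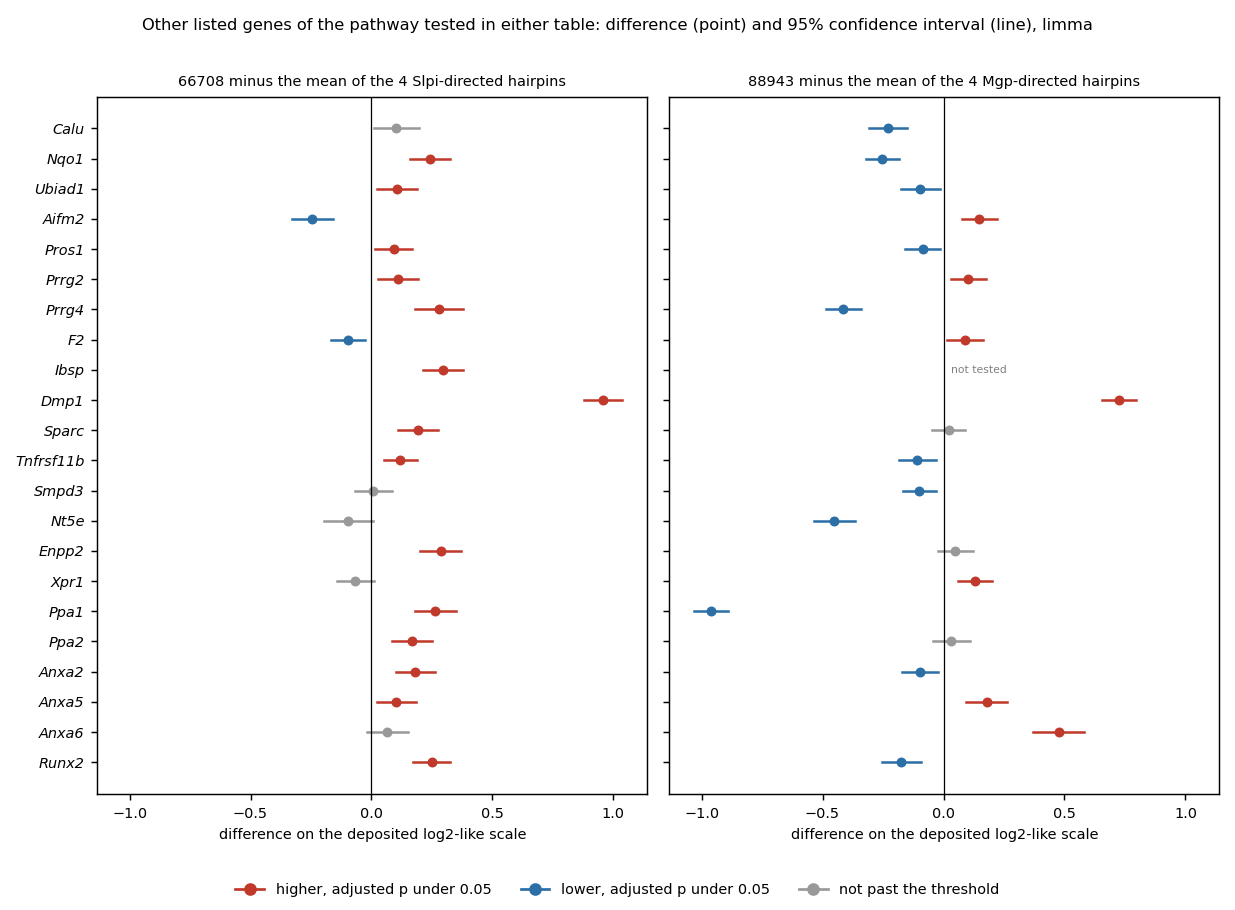
Difference between each catalogue-numbered hairpin and the mean of the 4 gene-named hairpins of its table (x axis, deposited log2-like scale) for the listed pathway genes tested in either table (y axis), with 95% confidence intervals; colour gives the call. Dmp1 is the rightmost gene in both panels, and Ppa1 is the leftmost for 88943.

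Dmp1, which encodes an acidic matrix phosphoprotein of bone and tooth, was higher in both catalogue-numbered lines. It had 24.9 and 26.4 CPM in 66708, against 4.09 to 8.45 (median 5.15) in the Slpi-directed libraries, and 12.1 and 13.9 CPM in 88943, against 1.49 to 2.35 (median 1.82) in the Mgp-directed libraries. The differences were 0.96 ± 0.04 (limma, adjusted p = 8.149e-12; 4.76-fold in scaled reads) and 0.73 ± 0.03 (adjusted p = 1.635e-12; 6.39-fold). Ibsp, which encodes bone sialoprotein of the same protein family, had 3.69 and 3.50 CPM in 66708, against 0.882 to 2.11 (median 1.33) in the Slpi-directed libraries, a difference of 0.30 ± 0.04 (limma, adjusted p = 1.019e-05; 2.80-fold). In the Mgp table it had too few reads for the test, with 24 and 27 reads in 88943 (1.48 and 1.16 CPM), against 2 to 13 reads (0.112 to 0.810 CPM) in the Mgp-directed libraries.

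Dmp1, Ibsp and Spp1 are neighbours on chromosome 5, with 221.0 kb between Dmp1 and Spp1 and 123.6 kb between Ibsp and Spp1. All of these were called higher in 66708. In 88943 Dmp1 was higher while Spp1 was lower.

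Ppa1 and Prrg4 had opposite calls in the tables, as Spp1 and Slc20a1 did. Ppa1, a cytosolic pyrophosphatase gene, had 219 and 214 CPM in 66708, against 175 to 209 (median 185) in the Slpi-directed libraries, higher by 0.26 ± 0.04 (limma, adjusted p = 4.321e-05). It had 126 and 131 CPM in 88943, against 249 to 262 (median 255) in the Mgp-directed libraries, with a difference of -0.96 ± 0.03 (adjusted p = 3.234e-14), 2.18-fold lower in scaled reads. Prrg4, which encodes a transmembrane Gla protein, differed by 0.28 ± 0.05 in 66708 (limma, adjusted p = 1.307e-04) and by -0.41 ± 0.03 in 88943 (adjusted p = 5.738e-09). Its level was 44.7 and 43.2 CPM in 66708, against 30.6 to 38.9 (median 34.3) in the Slpi-directed libraries. In 88943 it was 40.0 and 44.1 CPM, against 51.0 to 70.2 (median 59.8) in the Mgp-directed libraries. The catalogue-numbered lines thus had similar Prrg4 CPM, while the gene-named lines of the tables differed, without a test across tables. Enpp2, which encodes autotaxin, was higher in 66708 (0.29 ± 0.04, adjusted p = 1.901e-05) and not called in 88943 (0.05 ± 0.03, adjusted p = 0.226; called higher on log2(CPM + 1), adjusted p = 0.0250, range over alternatives 0.0250 to 0.695). Anxa6, a calcium-dependent membrane-binding protein gene, was higher in 88943 (0.48 ± 0.05, adjusted p = 1.177e-07), and Nt5e, the gene of the ectonucleotidase that turns AMP into adenosine and phosphate, was lower there (-0.45 ± 0.04, adjusted p = 1.367e-08). In 66708 neither was called (Anxa6 0.07 ± 0.04, adjusted p = 0.176; Nt5e -0.10 ± 0.05, adjusted p = 0.108). Nt5e was called lower in 66708 on log2(CPM + 1) (adjusted p = 0.00565), with quantile normalization (0.00264) and without Slpi1U1 replicate 2 (0.0213), over a range of 0.00264 to 0.620.

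The genes whose levels most resembled that of Mgp over the 10 hairpin means of log2(CPM + 1) were Loxl3 (Pearson r = 0.99), Etv5 (0.98), Spata13 (0.97), Ikbip (0.96) and Tmie (0.95), out of 9582 genes of at least 5 CPM on average. These r describe 10 lines that share a cell line. The 4 gene-named hairpins of each table also share a drug and the gene they are named for, and no p is given for these r. Without the hairpins farthest from the median of Mgp, 66708 and Mgp1U3, they were 0.97, 0.98, 0.96, 0.94 and 0.95. The choice of these 5 depended on the measure: with Spearman correlation, or over the 8 gene-named hairpins alone, only 1 of the 5 stayed among the 5 most alike. Loxl3, the most alike, averaged 53.5 ± 0.769 CPM in 66708 and 21.6 ± 2.32 CPM in Mgp1U3 (SD, n = 2 each). None of the other 9 members was among the most alike: r with Mgp was 0.57 for Ank, 0.43 for Vkorc1, 0.37 for Spp1, 0.14 for Ggcx, 0.12 for Enpp1, -0.31 for Alpl, -0.64 for Slc20a1, -0.70 for Vkorc1l1 and -0.81 for Slc20a2. Over the 8 gene-named hairpins alone, r was -0.92 for Slc20a1 and 0.02 for Ank. Mgp (3.57 against 20.6 CPM) and Slc20a1 (248 against 160 CPM) each separate the Mgp-directed from the Slpi-directed hairpins without overlap. An r within either group was not taken.

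The cultures expressed epithelial markers, with Krt8 at 338 to 568 CPM and Cdh1 at 386 to 673 CPM in the 20 libraries. All 6 epithelial markers were read, and their sum was 2098 to 2146 CPM in 66708, against 1715 to 1874 in the Slpi-directed libraries, and 2288 to 2314 in 88943, against 1397 to 1550 in the Mgp-directed libraries. Its part in the differences above was not tested. Of the leukocyte markers Ptprc reached 0.262 CPM at most in the 20 libraries, while Cd68 had 3.33 to 8.17 CPM and reads in every library; the sum of the 4 in the list was 3.47 to 3.99 CPM in 66708, against 5.30 to 8.49 in the Slpi-directed libraries, and 7.10 to 7.59 in 88943, against 3.96 to 5.41 in the Mgp-directed libraries. The endothelial markers Pecam1 and Cdh5 reached 0.540 and 0.750 CPM. Of the fibroblast markers only Pdgfra exceeded 1 CPM (24.6 to 57.3), with Dcn, Lum and Col1a1 below it, and the sum of the 4 was 41.9 to 42.1 CPM in 66708, against 40.0 to 53.5 in the Slpi-directed libraries, and 55.4 to 58.1 in 88943, against 25.1 to 34.3 in the Mgp-directed libraries. Of the osteoblast markers Sp7 was without reads in 17 of 20 libraries and Bglap reached 0.739 CPM at most. The sum of those 3 markers, of which Ibsp is also in the pathway list, was 3.64 to 4.07 CPM in 66708, against 1.23 to 2.26 in the Slpi-directed libraries, and 1.42 to 2.10 in 88943, against 0.279 to 1.12 in the Mgp-directed libraries.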

How the data were processed

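RNA of 4T1 lines was amplified from 100 ng with a NuGEN Ovation kit and sequenced as 76 bp reads, per the labels' protocols. Per the submitters' processing notes, reads were aligned to mm10 with Bowtie2, counted with HTSeq and processed with DESeq; versions, annotation and strand setting: not given in the sources used here. The authors' deposited values are variance-stabilized, on a log2-like scale with a smallest value of 7.92 (Slpi table) or 8.12 (Mgp table). That scale follows a closed form and was inverted: 100% of values came out as whole reads within 0.001. The labels name 40 samples (4 per hairpin) but the tables have 20 columns (2 per hairpin) with no key to the samples, so a column stands for 1 replicate of its hairpin. Separate cultures are not stated: p-values cover the spread between columns only, possibly technical.

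Genes averaging 10 or more scaled reads (12332 and 12295) were tested with limma 3.58.1 in R 4.3.3 (1 mean per hairpin, 5 hairpins fitted together, intensity trend, two-sided, Benjamini-Hochberg over all genes tested, called at an adjusted p under 0.05). The contrasts were the catalogue-numbered hairpin minus the mean of the 4 gene-named hairpins, an F test among those 4, and each of the 10 pairs per table. Scripts were tested on simulated data. Folds are ratios of scaled reads, and CPM and RPKM use recovered reads and exon lengths of GENCODE M21. Alternatives were other filters, voom, log2(CPM + 1), equal medians, quantile normalization, hairpin means, a replicate block and each library left out. The members and lists were chosen with earlier results of these data known. All members are named; of the 46 listed pathway genes, those named are up to 4 called per table with the largest absolute difference, and for likeness to Mgp the 5 highest r, unnamed gene models passed over. Promoter windows came from RefSeq (GRCm38.p6) for the members with an entry.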

Additional observations from a re-analysis of the deposited data

Results flagged for a closer look

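Spp1 and Slc20a1 were called in opposite directions in the 2 tables. The Spp1 difference on the deposited scale was 0.67 for 66708 and -0.29 for 88943, 0.964 apart. The Slc20a1 difference was 0.38 for 66708 and -0.81 for 88943, 1.18 apart. In both genes every library of 66708 lay above, and every library of 88943 below, the range of the gene-named libraries of its table. The difference between the tables was not tested, since the tables were normalized separately, and in 88943 the Spp1 call was lost with quantile normalization (-0.07). Among the 20 sets of 4 hairpin means examined for a hairpin set apart from the others, where chance marks about 1 in 20, none was marked.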

How the results depend on the processing

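Mgp, Spp1, Ank and Slc20a1 in 66708, and Mgp, Enpp1 and Slc20a1 in 88943, kept direction and call under every alternative that gave a value; Mgp has none in its own table at the filter of 1 unit above the smallest value. With hairpin means as samples, the genes called were 3600 for 66708, against 6397 over libraries, and 5206 for 88943, against 8093, and the members called in 88943 were 4 instead of 7. On log2(CPM + 1), 8 of the 10 members were called in 66708 instead of 5, beside 6472 of all 12332 genes instead of 6397. The F test called 814 genes in the Slpi table, 272 with no filter and 397 to 1410 with a library left out, and 2877 in the Mgp table, 1483 with no filter and 1612 to 4811 with a library left out. Of the members, it called 3 in the Mgp table, 6 with voom, 6 with the replicate block and 2 to 7 with a library left out. Signs turned for Vkorc1 (-0.0137), Vkorc1l1 (-0.0532) and Anxa6 (-0.0007) in 66708 and for Alpl (0.0268) and Slc20a2 (0.029) in 88943 on log2(CPM + 1); for Ggcx (-0.0126), Slc20a2 (0.0178) and Enpp2 (-0.0232) in 88943 with quantile normalization; and for Vkorc1l1 in 66708 with equal medians (-0.0036) and over libraries left out (-0.0212 to 0.0569). The cause was not tested. Enpp2 in 66708 lost its call with hairpin means (adjusted p = 0.0501; range over alternatives 2.646e-06 to 0.0501). Ank lost its call among the Slpi-directed hairpins without Slpi4 replicate 1 (adjusted p = 0.0820; range 0.00143 to 0.0820). Over all results for single genes, 548 alternatives kept direction and call, 16 gained a call, 15 lost it and 10 reversed.

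Replicate numbers gave no uniform pairing of the libraries. Same-numbered libraries correlated at -0.447 to 0.468, above 0.1 in 3 of 10 pairs of hairpins in the Slpi table and 4 of 10 in the Mgp table (medians -0.0103 and 0.00342). With the replicate block, 6299 genes were called for 66708 and 8200 for 88943. The F tests in the Slpi and Mgp tables then called 636 and 3424, against 814 and 2877 without it. Depth limits Mgp in its own table, at 15 reads in the lowest library.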
